A study of Capra hircus with 6 samples.

Results

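The glycolysis and gluconeogenesis enzymes of cultured goat dermal papilla cells were compared with and without all-trans retinoic acid (ATRA), the form of vitamin A that activates the nuclear retinoic acid receptors. The members were the genes whose KEGG annotation in the deposited table names the glycolysis and gluconeogenesis pathway, leaving out ALDH1A3, an enzyme that makes retinoic acid itself. This gave 59 of the 15944 listed genes. The rule reads the annotation alone. The cells were secondary hair follicle dermal papilla cells (SHF-DPCs) of Albas cashmere goats (Capra hircus), wild type and grown as primary cultures from the skin of goats 3 years old. Dermal papilla cells are the fibroblast-like cells at the base of the follicle that signal to the hair-forming epithelium. The ATRA-treated group (3 libraries) received 100 µM ATRA for 24 h, and the control group (3 libraries) was cultured in medium without ATRA. All libraries carry the same batch number in the labels. The methods state that cells of 3 separate animals were treated.

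Glycolysis splits glucose into pyruvate in a chain of cytosolic reactions that yields ATP and NADH. Hexokinase, phosphofructokinase and pyruvate kinase catalyze the steps that are practically irreversible, and most steps have several isoenzymes encoded by separate genes. Pyruvate is then reduced to lactate by lactate dehydrogenase or oxidized to acetyl-CoA in mitochondria by the pyruvate dehydrogenase complex. Gluconeogenesis runs the reversible steps backwards and bypasses the irreversible ones with its own enzymes, mainly in liver and kidney. The KEGG pathway also holds the enzymes that interconvert glucose phosphates and those that handle ethanol, acetaldehyde and acetate. Fibroblasts in culture commonly rely on glycolysis.

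The control libraries held 36887160 to 38012771 counts and the ATRA libraries 35532339 to 36870939. Levels are given as normalized CPM, the counts of a library scaled to a common total after edgeR's TMM scaling, as mean ± SD over 3 libraries. Transcript lengths were not used, so levels are compared between groups for the same gene and not between genes. The log₂ fold change (log₂FC) is ATRA minus control, with its standard error (SE). The test was the two-sided quasi-likelihood test of edgeR, p-values were adjusted by Benjamini-Hochberg over all 12588 genes tested, and "rose" or "fell" below means an adjusted p under 0.05. The TMM factors separated the groups (0.842 to 0.851 in control, 1.165 to 1.197 with ATRA). Scaling by library size only moved the median log₂FC of all tested genes from 0.04 to 0.52. The direction of a small change therefore depends on the scaling.

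The labelled cell type was checked against its markers. Of 9 dermal papilla and mesenchyme markers, ACTA2 (smooth muscle actin) and VIM (vimentin) were abundant in control cells, whereas PROM1 (CD133), ALPL and CORIN had at most 1 count in any library. With ATRA, mean ACTA2 went from 6582 to 8.37 CPM and VIM from 19158 to 1595 CPM. VCAN went from 1641 to 32.4 CPM, PDGFRA from 865 to 129 CPM and LEF1 from 16.1 to 11.1 CPM. SOX2 was low and went up, from 0.0744 to 0.271 CPM. The check of the cell type therefore rests on the control libraries. The summed level of the 9 ranged from 27119 to 29702 CPM in control libraries and from 1752 to 1799 CPM in ATRA libraries. The sum of 7 keratinocyte markers stayed at or below 0.742 CPM in every library. The sum of 5 endothelial markers moved from between 0.903 and 1.24 CPM to between 6.19 and 9.16 CPM, with PECAM1 at 0 in the control libraries and CDH5 at 1 count or fewer. Mean PECAM1 was 6.10 CPM with ATRA, and TEK went from 0.619 to 1.13 CPM. KDR went from 0.219 to 0.0230 CPM and VWF from 0.229 to 0.241 CPM. The listed 4 of 5 leukocyte markers moved from between 2.72 and 5.86 CPM to between 10.8 and 12.03 CPM, mostly CD68. The sum of the listed 2 of 5 melanocyte markers moved from between 16.1 and 17.6 CPM to between 32.2 and 39.0 CPM. MITF went from a mean of 13.0 to 32.7 CPM, whereas PMEL went the other way, from 4.01 to 2.15 CPM. The 4 adipocyte markers summed to between 1.39 and 2.38 CPM in control and between 2.56 and 3.29 CPM with ATRA. ADIPOQ and PLIN1 had higher means with ATRA, and FABP4 and LEP had lower means. The 1 listed marker of 4 for skeletal muscle, DES, was at 0.556 CPM or less. These marker levels moved with the groups in which the glycolytic genes were compared, and their part in the results was not tested. In bulk RNA, fewer cells of a type and less RNA per cell cannot be told apart.

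Of the 59 members, 48 passed edgeR's expression filter and were tested. Compared with the control group, 15 of the 48 (31.2%) rose and 22 (45.8%) fell. Over all tested genes, 40.9% rose and 38.7% fell, 79.7% in either direction, so a called change was the usual state of a gene in this comparison. With library size only, 26 members were called higher and 11 lower. The members' median log₂FC was -0.14, beside 0.04 for all tested genes. The members' median was 0.18 below that of all tested genes with TMM and also 0.18 below it with library size only (0.34 beside 0.52). Most changes were small, since 37 of the 48 lay within 1 log₂ unit of no change.

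By the study's thresholds (|log₂FC| above 1 and an unadjusted p under 0.05), 4 members (8.33%) were higher and 7 (14.6%) were lower, beside 13.7% and 17.3% of all tested genes. The 4 higher members were LDHA, the LDHC row LOC102189835, ENO4 and PKLR. Of these, ENO4 and PKLR passed the expression filter through their ATRA libraries alone, as did HK3. The 7 lower members were ENO3, ALDH3B1, BPGM, ALDH3A2, PGAM2, PCK2 and PKM. The values of the groups did not overlap for 36 of the 48 members, 12 with ATRA above and 24 with ATRA below, beside 80.1% of all tested genes (41.2% above and 39.0% below). Of the called members, 15 higher and 11 lower kept their call and direction under all 4 scalings. These include LDHA, GPI, ALDOA, ENO1, PKM, ENO3, BPGM, PGAM1 and PCK2, but also ENO4, PKLR and HK3. The median log₂FC of all tested genes was 0.02 with RLE, 0.11 with upper-quartile scaling and 0.52 with library size only. Higher calls could therefore hardly be lost, and that they were kept is no test of them. The same share over all tested genes was not computed.

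**Figure D1:**
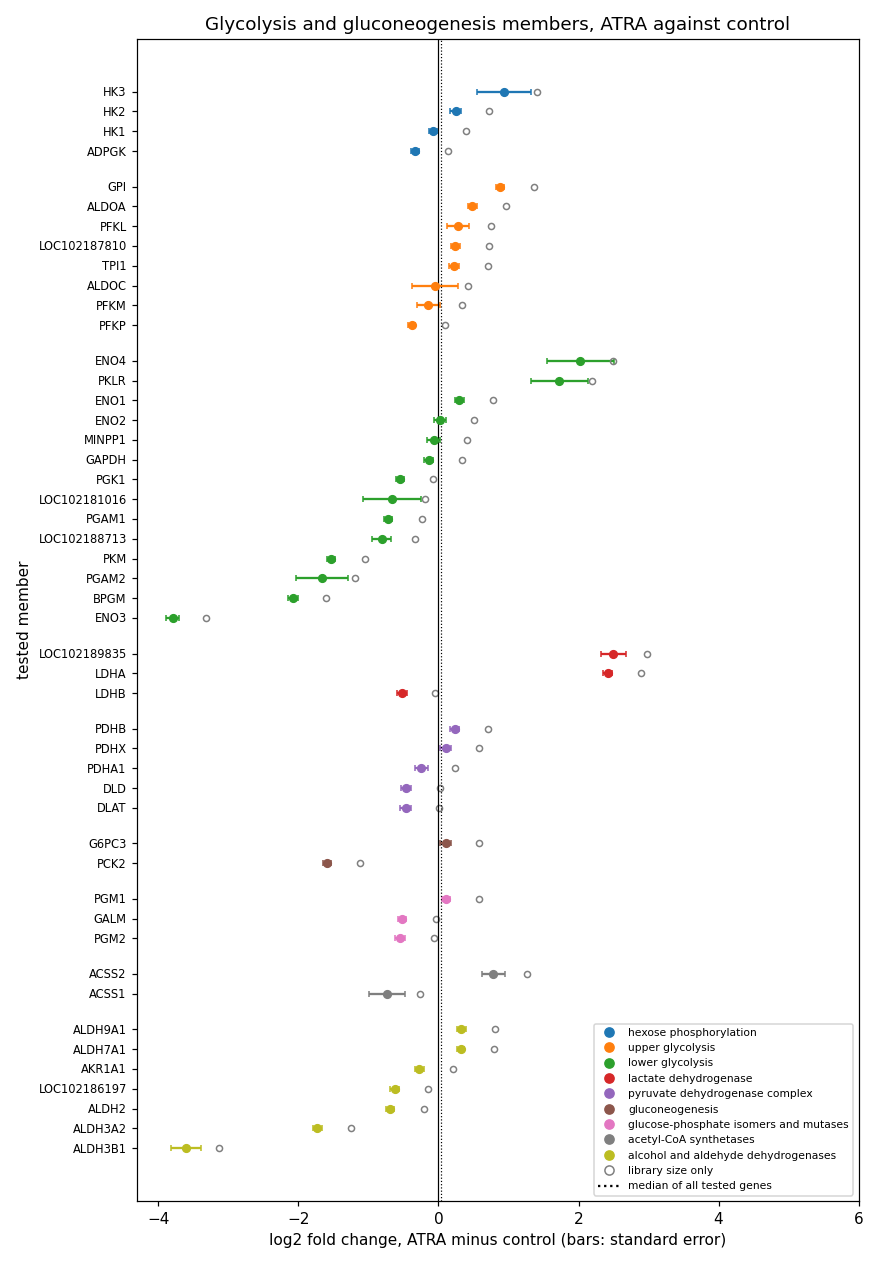
Log₂ fold change (ATRA minus control) of the 48 tested members, grouped by role; filled points with SE bars use TMM scaling, open points library size only, and the dotted line marks the median of all tested genes (0.04). LDHA and its LDHC neighbor stand on the right and ENO3 and ALDH3B1 on the left, and 11 members below 0 with TMM lie above 0 with library size only.

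The 11 members that were not tested had at most 34 counts in any library. Among them were HKDC1 (a hexokinase), FBP1 and FBP2 (fructose bisphosphatases), PCK1 (the cytosolic phosphoenolpyruvate carboxykinase), GAPDHS and LDHAL6B (testis-type isoenzymes), ALDH3A1, the ADH4 row LOC102176872 and LOC102181105. Of the 11, 5 had 3 counts or fewer in every library. FBP1, FBP2 and PCK1, which bypass irreversible steps in gluconeogenesis, had at most 9 counts in any library. FBP1 had 1, 0 and 0 counts in control and 3, 4 and 9 with ATRA, and it was below the filter and given no test.

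The members took 1.30% ± 0.0363 (SD, n = 3) of all counts in control libraries and 1.66% ± 0.0501 (SD, n = 3) in ATRA libraries. This share needs no scaling factor, but it depends on what the other genes take. With the 100 most abundant other genes left out of the total, it was 1.87% ± 0.0535 and 2.06% ± 0.0750 (SD, n = 3). The 5 members with the most reads, PKM, ENO1, GAPDH, LDHA and ALDOA, held 69.7% ± 0.706 of the members' reads in control and 72.3% ± 0.336 with ATRA (SD, n = 3). Their order by reads differed between the groups. PKM held 29.9% ± 0.316 of the members' reads in control and 11.2% ± 0.1399 with ATRA (SD, n = 3). LDHA held 2.76% ± 0.147 and 15.96% ± 0.590 (SD, n = 3). ENO1 held 16.8% ± 0.267 in control and, with 22.4% ± 0.558, was the member with the most reads with ATRA (SD, n = 3). The GAPDH share was 15.1% ± 0.560 and 14.9% ± 0.466, which differed by less than the SD of either group.

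Hexokinases trap glucose in the cell as glucose 6-phosphate. Of 6 members of this step, 4 were tested, of which 2 rose and 1 fell. The shares over all tested genes were 40.9% and 38.7%. HK1, the isoenzyme with the most reads here, had 222, 204 and 215 CPM in the control libraries and 202, 201 and 203 CPM in the ATRA libraries. Its values did not overlap, but the difference did not pass the test (log₂FC -0.08 ± 0.0542 SE, edgeR adjusted p = 0.180), and with library size only it was positive (0.40). HK2, the inducible isoenzyme of muscle, fat and many cultured cells, had 90.7, 95.8 and 101 CPM in control and 97.5, 125 and 119 CPM with ATRA. It rose by a log₂FC of 0.25 ± 0.0783 (SE, edgeR adjusted p = 0.0083), although the lowest ATRA library lay within the control range. The HK2 call was lost without control replicate 1 (edgeR adjusted p = 0.0544) and in the unequal-variance test with R's t.test function (adjusted p = 0.177). ADPGK, which phosphorylates glucose with ADP in place of ATP, fell by 0.34 on the log₂ scale but was higher with library size only (0.14). HK3 stayed below 1 CPM in every library and entered the test through its ATRA libraries alone, and its call was lost in 4 of the 6 fits that left out a library.

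The upper part of the pathway turns glucose 6-phosphate into triose phosphates. Of its 8 tested members, 4 rose and 1 fell, beside 40.9% and 38.7% of all tested genes. The median log₂FC of the 8 was 0.23, beside 0.04 for all tested genes. GPI, which converts glucose 6-phosphate to fructose 6-phosphate, had 355, 329 and 342 CPM in control and 652, 599.7 and 639.9 CPM with ATRA. The groups were far apart, a 1.84-fold rise (log₂FC 0.88 ± 0.0584 SE, edgeR adjusted p = 9.92e-11). ALDOA, the main aldolase outside the liver, had 858, 751 and 774 CPM in control and 1198, 1015 and 1123 CPM with ATRA. It rose 1.40-fold (log₂FC 0.49 ± 0.0692 SE, edgeR adjusted p = 3.95e-06), with every ATRA library above every control library.

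TPI1, which interconverts the triose phosphates, had 375, 360.2 and 342 CPM in control and 447, 372 and 441 CPM with ATRA. It rose by a log₂FC of 0.23 ± 0.0689 (SE, edgeR adjusted p = 0.00616), with a slight overlap between the groups. In the unequal-variance test it was not called (adjusted p = 0.134). The phosphofructokinases did not move together. PFKP, the platelet-type subunit and the one with the most reads, fell from 182 ± 5.59 to 139.7 ± 5.54 CPM (SD, n = 3, log₂FC -0.39 ± 0.0557 SE, edgeR adjusted p = 4.79e-06). With library size only, PFKP was at 0.09 and not called (edgeR adjusted p = 0.110). The liver-type subunit is listed in the table as both PFKL and LOC102187810. LOC102187810 rose from 77.9 ± 1.03 to 92.1 ± 5.16 CPM (SD, n = 3, log₂FC 0.24), and PFKL had 5.18 ± 0.991 and 6.29 ± 0.999 CPM (SD, n = 3), which did not pass the test (edgeR adjusted p = 0.110). PFKM, the muscle-type subunit, had 3.43 ± 0.304 and 3.11 ± 0.208 CPM (SD, n = 3, edgeR adjusted p = 0.420).

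The lower part of the pathway yields ATP and pyruvate. Of its 14 tested members, 3 rose and 7 fell, beside 40.9% and 38.7% of all tested genes. The median log₂FC of the 14 was -0.61, beside 0.04 for all tested genes. Of the 3 that rose, ENO4 and PKLR entered the test through their ATRA libraries alone, and ENO1 was well covered in both groups. GAPDH, which makes the NADH of glycolysis and served as the reference gene of the study's qRT-PCR, had 2489, 2215 and 2236 CPM in control and 2217, 1956 and 2124 CPM with ATRA. The groups overlapped (log₂FC -0.14 ± 0.0655 SE, edgeR adjusted p = 0.0580). The call on GAPDH depended on the scaling, since library size only gave a log₂FC of 0.34 (edgeR adjusted p = 8.05e-05). It was called lower with RLE scaling (edgeR adjusted p = 0.0311), in DESeq2 (adjusted p = 0.0204), without the filter (edgeR adjusted p = 0.0304), with the replicate number as a block (edgeR adjusted p = 0.0392) and without ATRA replicate 1 (edgeR adjusted p = 0.0207).

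PGK1 and PGAM1, the enzymes of the next steps, both fell. PGK1, which forms the first ATP of the pathway, went from 676 ± 31.5 to 461 ± 18.1 CPM (SD, n = 3, log₂FC -0.55 ± 0.0587 SE, edgeR adjusted p = 9.06e-08), but with library size only it was at -0.07 and not called (edgeR adjusted p = 0.222). PGAM1, the phosphoglycerate mutase of most tissues, went from 552 ± 23.3 to 336 ± 13.7 CPM (SD, n = 3, log₂FC -0.72 ± 0.0582 SE, edgeR adjusted p = 2.01e-09). BPGM, which makes and breaks down 2,3-bisphosphoglycerate and is best known from red blood cells, had 97.0, 99.97 and 91.8 CPM in control and 21.5, 22.7 and 24.1 CPM with ATRA. This was a 4.22-fold fall (log₂FC -2.08 ± 0.0692 SE, edgeR adjusted p = 2.95e-15).

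The enolases, which form phosphoenolpyruvate, went in different directions. ENO1, the isoenzyme of most tissues, had 2671, 2591 and 2458 CPM in control and 3179, 2967 and 3344 CPM with ATRA. It rose by a log₂FC of 0.30 ± 0.0622 (SE, edgeR adjusted p = 0.000267), with no overlap. ENO3, the muscle isoenzyme, had 53.1, 56.2 and 53.2 CPM in control and 3.61, 4.10 and 3.96 CPM with ATRA. With a 13.9-fold fall (log₂FC -3.80 ± 0.0878 SE, edgeR adjusted p = 1.23e-17) it had the largest change of all tested members in absolute log₂FC. ENO2, the neuronal isoenzyme, had 15.7 ± 0.608 and 16.02 ± 0.465 CPM (SD, n = 3, edgeR adjusted p = 0.792).

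PKM encodes the pyruvate kinase of most tissues outside the liver and red blood cells, and its splice forms M1 and M2 cannot be separated in counts per gene. It had 4746, 4493 and 4493 CPM in control and 1634, 1500.3 and 1607 CPM with ATRA. The control values were all above the ATRA values, a 2.90-fold fall (log₂FC -1.53 ± 0.0606 SE, edgeR adjusted p = 3.83e-14). The log₂FC was -1.06 with library size only. Among the other members of the lower part, PGAM2, ENO4 and PKLR stayed at or below 1.05 CPM in every library. In the RefSeq table PGAM2 overlaps DBNL, which had means of 117 CPM in control and 68.6 CPM with ATRA. PKLR overlaps HCN3, HK3 overlaps UNC5A, PFKP overlaps PITRM1, TPI1 overlaps SPSB2 and ALDH7A1 overlaps PHAX, and whether the counting used strand is not stated. The counts of these members may therefore include reads of the partner gene.

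**Figure D2:**
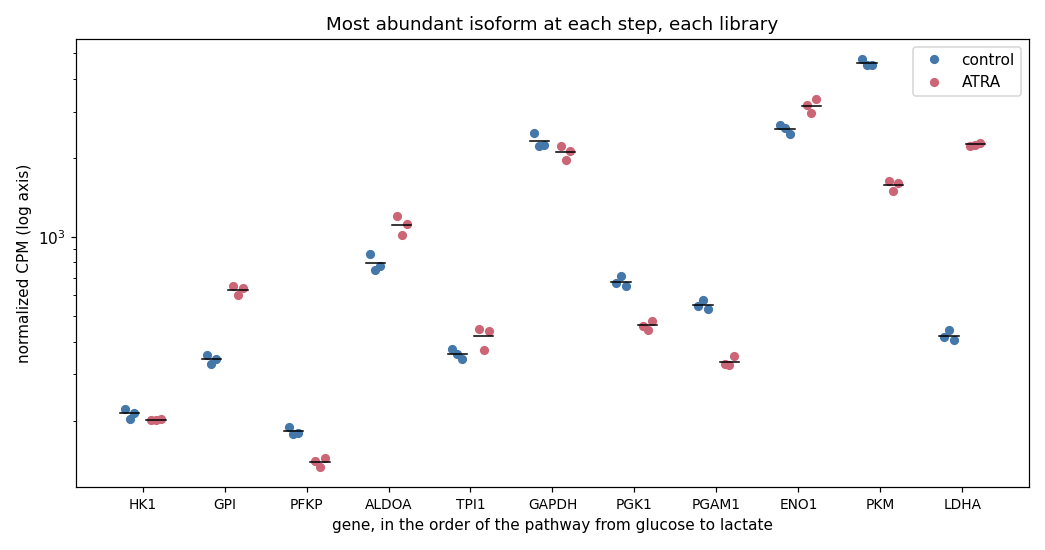
Normalized CPM (log axis) of the gene with the most reads at each step from hexokinase to lactate dehydrogenase, in pathway order; points are the 3 control and 3 ATRA libraries, and lines are group means. GPI, ALDOA, ENO1 and LDHA lie above control with ATRA, PFKP, PGK1, PGAM1 and PKM lie below, and GAPDH and TPI1 overlap.

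Lactate dehydrogenase reduces pyruvate to lactate and regenerates NAD+. Its A subunit prevails in glycolytic muscle and its B subunit in heart. LDHA, listed under the older name LDH-A, had 418, 444 and 404 CPM in the control libraries and 2228, 2232 and 2286 CPM in the ATRA libraries. The lowest ATRA library was 5.02 times the highest control library, and the rise was 5.33-fold (log₂FC 2.41 ± 0.0606 SE, edgeR adjusted p = 4.23e-17, and 2.89 with library size only). LDHB had 389, 398 and 348 CPM in control and 269, 238 and 281 CPM with ATRA, a fall (log₂FC -0.52 ± 0.0682 SE, edgeR adjusted p = 1.26e-06). With library size only, LDHB was at -0.05 and not called (edgeR adjusted p = 0.510). The LDHC row, LOC102189835, rose from 1.64 ± 0.555 to 9.31 ± 0.342 CPM (SD, n = 3, log₂FC 2.50). It neighbors LDHA in the RefSeq table and resembles it in sequence, so some of its reads may be those of LDHA.

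The pyruvate dehydrogenase complex feeds pyruvate into the citrate cycle. Of its 5 members, 1 (20.0%) rose and 3 (60.0%) fell, beside 40.9% and 38.7% of all tested genes. All these changes were below 0.5 on the log₂ scale. DLAT and DLD, which encode the E2 and E3 enzymes, fell by 0.47 and 0.46 on the log₂ scale, and PDHB, the beta subunit of E1, rose (0.23). PDHA1, the alpha subunit of E1, had a log₂FC of -0.25, and its call was lost without control replicate 3 or ATRA replicate 1 (highest edgeR adjusted p = 0.1247). With library size only, PDHA1 was called higher (log₂FC 0.23, edgeR adjusted p = 0.0332), and DLAT and DLD were at 0.01 and 0.02 and not called. PDHX, which ties E3 to the complex, did not pass the test (log₂FC 0.10).

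Of the 5 gluconeogenesis genes, only PCK2 and G6PC3 had enough counts to be tested. PCK2, the mitochondrial phosphoenolpyruvate carboxykinase, had 351, 332 and 333 CPM in control and 117, 103 and 116 CPM with ATRA. The groups were far apart, a 3.02-fold fall (log₂FC -1.59 ± 0.0608 SE, edgeR adjusted p = 2.33e-14). G6PC3, the glucose 6-phosphatase found in most tissues, had 31.0 ± 1.94 and 33.3 ± 1.29 CPM (SD, n = 3) and did not pass the test (log₂FC 0.10 ± 0.0743 SE). Of the genes of glucose phosphate conversion, PGM2 and GALM fell by 0.55 and 0.52 on the log₂ scale, and PGM1 did not pass the test (log₂FC 0.11). PGM2 and GALM were at -0.07 and -0.04 with library size only and not called.

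The alcohol and aldehyde dehydrogenases oxidize alcohols and aldehydes, and several accept lipid aldehydes. Of the 7 tested, 2 (28.6%) rose and 5 (71.4%) fell, beside 40.9% and 38.7% of all tested genes. The median log₂FC of the 7 was -0.63. ALDH3A2, the fatty aldehyde dehydrogenase, had 82.1, 80.4 and 85.4 CPM in control and 24.6, 26.1 and 24.1 CPM with ATRA, a 3.31-fold fall (log₂FC -1.73 ± 0.0666 SE, edgeR adjusted p = 2.68e-14). ALDH3B1, another enzyme of lipid aldehydes, had 7.67, 5.87 and 5.39 CPM in control and 0.486, 0.567 and 0.483 CPM with ATRA, a 12.3-fold fall (log₂FC -3.61 ± 0.214 SE, edgeR adjusted p = 1.89e-11). ALDH2, the mitochondrial acetaldehyde dehydrogenase, the ADH5 row LOC102186197 and AKR1A1, an aldehyde reductase, fell by 0.69, 0.63 and 0.27 on the log₂ scale. With library size only, AKR1A1 was called higher instead (log₂FC 0.20, edgeR adjusted p = 0.00518). ALDH7A1 and ALDH9A1 rose, both by 0.32. The acetyl-CoA synthetases went apart. ACSS2, the cytosolic and nuclear form, rose from 2.87 ± 0.398 to 4.94 ± 0.593 CPM (SD, n = 3, log₂FC 0.78). ACSS1, the mitochondrial form, fell from 1.24 ± 0.128 to 0.745 ± 0.0666 CPM (SD, n = 3, log₂FC -0.74). The ACSS1 call was lost without control replicate 2 (edgeR adjusted p = 0.0523) and with library size only (log₂FC -0.26).

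The ratio of paired isoenzyme genes within each library does not depend on the scaling. It was compared for 8 pairs with an exact permutation test, two-sided, for which 3 libraries against 3 allow no p below 0.1. LDHA made up 51.8%, 52.7% and 53.7% of the reads of LDHA and LDHB in the control libraries and 89.2%, 90.3% and 89.1% in the ATRA libraries. The log₂ ratio differed by 2.94 ± 0.0712 (SE, exact permutation p = 0.1, 0.114 after Benjamini-Hochberg adjustment over the 8 pairs). ACSS2 went from 69.6% ± 3.08 to 86.7% ± 2.45 of its pair with ACSS1 (SD, n = 3), a log₂ difference of 1.52 ± 0.213 (SE). PGM1 went from 61.8% ± 2.18 to 71.8% ± 2.22 of its pair with PGM2 (SD, n = 3), a log₂ difference of 0.66 ± 0.119 (SE).

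HK2 had 31.0% ± 1.73 of its pair with HK1 in control and 35.9% ± 2.97 with ATRA (SD, n = 3, log₂ difference 0.32 ± 0.128 SE). For PFKL against PFKP, the log₂ difference was 0.67 ± 0.215 (SE), and with the reads of both PFKL entries summed it was 0.63 ± 0.0336 (SE), from 31.3% ± 0.662 to 41.3% ± 0.629 of the pair (SD, n = 3). The differences for PFKL against PFKM and for ENO1 against ENO2 were 0.43 and 0.27. In these 7 pairs, LDHA among them, the groups did not overlap, and the exact permutation p was the smallest the design allows (0.1). The levels of single genes did not overlap between the groups for 80.1% of all tested genes. A ratio is another measure, and the same share over ratios of gene pairs was not computed. The pairs are not independent, since PFKL stands in both the PFKP and the PFKM pair. ALDOA held over 99% of its pair with ALDOC in every library, and there the groups overlapped (exact permutation p = 0.3).

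**Figure D3:**
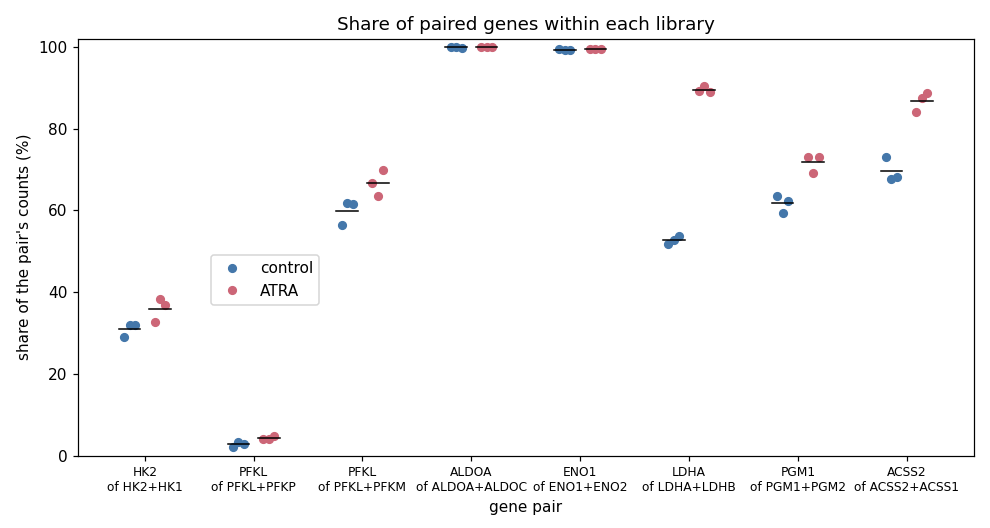
Share of the pair's counts (%) held by the named gene of each isoenzyme pair, in each of the 3 control and 3 ATRA libraries, with group means as lines. LDHA moves from 52.8% to 89.5% of its pair on average, ACSS2 from 69.6% to 86.7%, and the ALDOA and ENO1 shares are near their ceiling in both groups.

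Some members carry further KEGG annotations in the table. The HIF-1 signaling pathway, the response to low oxygen, shares 24 members, of which 21 were tested. Of these, 9 (42.9%) rose and 5 (23.8%) fell, with a median log₂FC of 0.03. Of the 27 other tested members, 6 (22.2%) rose and 17 (63.0%) fell, with a median log₂FC of -0.47. Those that rose include ENO4 in the first set and PKLR in the second, which passed the expression filter through their ATRA libraries alone. HK3, also counted among those that rose, passed the filter in the same way. The LDHC row, whose reads may include those of LDHA, also rose in the first set. The shares of all tested genes were 40.9% and 38.7%, and the difference between both sets of members was not tested. ENO3 and LDHA both belong to the first set, at -3.80 and 2.41. The set holds the lowest log₂FC of the members, that of ENO3, and the highest, that of the LDHC row (2.50). The 12 members shared with the pentose phosphate pathway had a median log₂FC of 0.11 over the 9 tested. The 19 shared with pyruvate metabolism had -0.25 over the 17 tested.

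Other energy pathways of the same table were described in the same way after leaving out the members. Of 22 tested genes of the citrate cycle, 1 (4.55%) rose and 15 (68.2%) fell (median log₂FC -0.40). Of 111 tested genes of oxidative phosphorylation, 27 (24.3%) rose and 45 (40.5%) fell (median -0.08). Of 16 tested genes of the pentose phosphate pathway, 6 (37.5%) rose and 7 (43.8%) fell (median -0.13). Over all tested genes, 40.9% rose and 38.7% fell (median 0.04). The differences between these sets and the glycolytic members were not tested.

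Genes that supply, switch or branch off glycolysis but lie outside the KEGG set were taken from 4 lists of 64 listed genes, of which 62 were tested. In all, 30 (48.4%) rose and 23 (37.1%) fell, beside 40.9% and 38.7% of all tested genes, with a median log₂FC of 0.10. Among 10 tested carriers of glucose and lactate, 5 rose and 4 fell. SLC2A1, the glucose transporter GLUT1, had 84.0, 81.7 and 82.9 CPM in control and 599.4, 646 and 639.9 CPM with ATRA, a 7.58-fold rise (log₂FC 2.92 ± 0.0598 SE, edgeR adjusted p = 2.54e-18). SLC2A3, the transporter GLUT3, rose from 1.23 ± 0.405 to 9.20 ± 1.16 CPM (SD, n = 3, log₂FC 2.90). SLC16A1, the monocarboxylate transporter MCT1 that carries lactate and pyruvate, rose from 167 ± 6.30 to 407 ± 32.7 CPM (SD, n = 3, log₂FC 1.28). SLC2A6, a transporter of lysosomal membranes, fell from 5.69 ± 0.973 to 0.397 ± 0.145 CPM (SD, n = 3, log₂FC -3.83). BSG (basigin), the chaperone that brings MCT1 to the membrane, fell from 762 ± 32.0 to 379 ± 28.6 CPM (SD, n = 3, log₂FC -1.01), and SLC16A7, the transporter MCT2, had a log₂FC of -1.04.

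The switches of glycolytic flux are enzymes that control phosphofructokinase and the entry of pyruvate into mitochondria. Of 15 tested, 4 (26.7%) rose and 8 (53.3%) fell, beside 40.9% and 38.7% of all tested genes. PFKFB4, an enzyme that sets the level of fructose 2,6-bisphosphate, rose from 13.1 ± 1.30 to 38.0 ± 2.92 CPM (SD, n = 3, log₂FC 1.53). PFKFB3, of the same family, fell from 83.8 ± 2.80 to 59.9 ± 3.79 CPM (SD, n = 3, log₂FC -0.48). With library size only, PFKFB3 was at -0.01 and not called (edgeR adjusted p = 0.924). PFKFB2 did not pass the test (log₂FC -0.13). PDK1 and PDK4 are kinases that inactivate pyruvate dehydrogenase. PDK1 had 13.6, 17.6 and 15.3 CPM in control and 35.8, 37.9 and 33.5 CPM with ATRA, a 2.31-fold rise (log₂FC 1.204 ± 0.0925 SE, edgeR adjusted p = 8.92e-10). PDK4 had 1, 2 and 5 counts in the control libraries and 3.29, 3.85 and 3.72 CPM in the ATRA libraries. Its rise (log₂FC 5.38 ± 0.348 SE) rests on these few control counts. MPC1, a subunit of the mitochondrial pyruvate carrier, fell from 45.8 ± 1.60 to 21.9 ± 0.525 CPM (SD, n = 3, log₂FC -1.06). PC, pyruvate carboxylase, the first enzyme of gluconeogenesis from pyruvate, fell from 32.5 ± 2.19 to 13.0 ± 0.498 CPM (SD, n = 3, log₂FC -1.32).

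In the list of pentose phosphate, hexosamine and glycogen genes, 6 of 15 rose and 6 fell (40.0% each). The shares over all tested genes were 40.9% and 38.7%. UAP1, which makes UDP-N-acetylglucosamine, rose 10.5-fold from 42.2 ± 3.41 to 443 ± 2.54 CPM (SD, n = 3, log₂FC 3.39). RPIA and TKT, of the non-oxidative pentose phosphate branch, rose by log₂FC of 2.06 and 1.58. PYGB, a glycogen phosphorylase, fell by 1.21 on the log₂ scale. In the list of hypoxia-inducible factor genes and their targets outside glycolysis, 15 of 22 (68.2%) rose and 5 (22.7%) fell. Among those that rose, CA9 passed the expression filter through its ATRA libraries alone. It had 4, 1 and 3 counts in control and 57, 75 and 65 with ATRA. The median log₂FC of this list was 1.31, beside 0.04 for all tested genes. DDIT4, an inhibitor of mTORC1 signaling, rose from 43.5 ± 2.50 to 462 ± 35.1 CPM (SD, n = 3, log₂FC 3.41). BNIP3, a mitophagy receptor, and EGLN3, a prolyl hydroxylase that marks the factor for degradation, rose by log₂FC of 3.17 and 2.87. Other targets went the other way. CA12, a carbonic anhydrase, fell from 159 ± 2.04 to 5.33 ± 0.133 CPM (SD, n = 3, log₂FC -4.90). ADM (adrenomedullin) fell from 939 ± 22.1 to 235 ± 12.2 CPM (SD, n = 3, a 3.9995-fold fall), and P4HA2, a collagen prolyl hydroxylase listed as LOC102189116, fell by 1.60 on the log₂ scale.

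**Figure D4:**
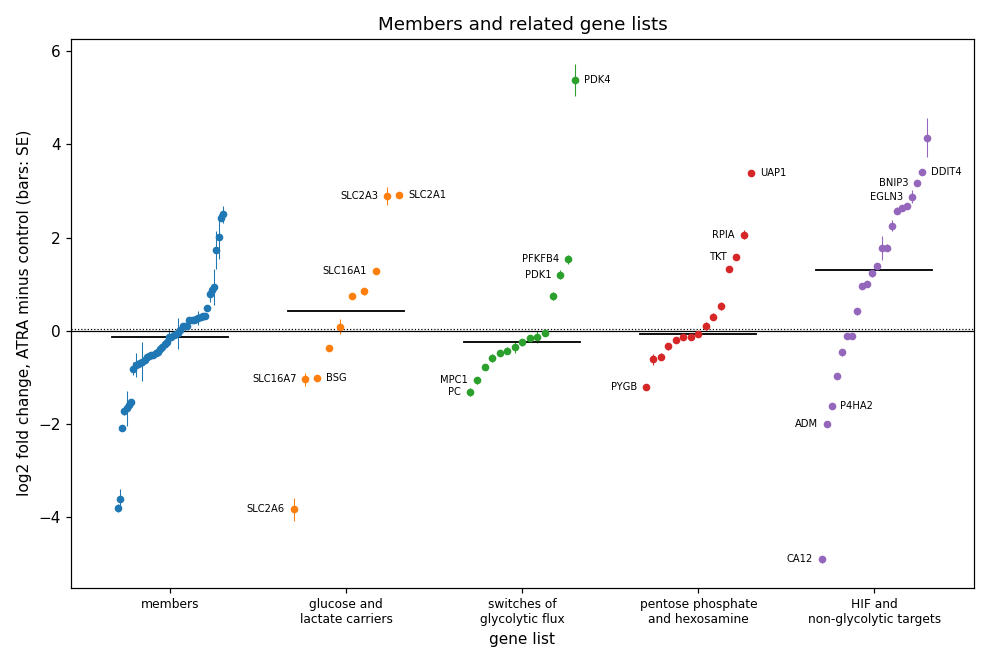
Log₂ fold change (ATRA minus control, bars are SE) of the tested members and of the tested genes of the 4 related lists, with the median of each list as a line and the median of all tested genes dotted. The members lie mostly within 1 unit of 0, and the hypoxia-inducible factor list has the highest median (1.31) while reaching down to CA12 at -4.90.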

How the data were processed

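The authors enriched polyadenylated RNA of SHF-DPCs, removed adapters and poor reads (fastp, TrimGalore), and deposited the read count of each gene per library with KEGG annotation. The submitters' processing notes name HISAT2, featureCounts and DESeq2. The versions of these 3 tools, the genome build, annotation and strand setting are not given in the sources used here. The deposited values are raw whole-number counts.

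From these counts, edgeR's expression filter (minimum count 10), TMM scaling and quasi-likelihood test (robust, two-sided, no covariate) were applied to all 6 libraries, with Benjamini-Hochberg adjustment over 12588 genes. Since these are counts, R's t.test function, which the study's methods name without its settings, is an alternative here with unequal variances on log2(CPM + 1). Normalized CPM uses the total over the tested genes times the TMM factor, the prior count of the log₂FC was 0.125, and its SE is |log₂FC|/√F. No libraries within a group agreed within sampling noise. Errors cover these 3 cultures per group. It is not stated whether the same animals gave both groups.

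Members and lists were chosen with earlier results of these data known. Named in detail were GAPDH, the gene with the most reads at each step, members with a mean CPM of at least 1, |log₂FC| above 1 and adjusted p under 0.05, the isoenzyme pairs, and up to 3 genes per direction of each related list by the same thresholds. Other members and other genes of the related lists were given beside them after their values were seen. Gene names came from the table and from RefSeq (all 59 members matched), and no coordinates are given. Results for some members that were not tested are not reported here by name.

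Further alternatives were DESeq2, RLE, upper-quartile or library-size scaling, other filters, a block for the replicate number, and leaving out each library. Chosen after seeing the data were the PFKL rows summed and the exclusion of members with support in 1 group only or with reads that may be shared. In a simulation of 3 against 3 libraries that changed 200 of the 12588 genes, edgeR recovered 194 and made 13 false calls. As many of these genes were raised as lowered, and no difference in scaling between the groups was simulated. In the data 79.7% of the tested genes were called, so the simulation cannot show how the scaling or the calls behave here. Software was edgeR 4.0.16 and DESeq2 1.42.0 in R 4.3.3 with limma 3.58.1, and scipy 1.17.1 and matplotlib 3.10.9 in Python 3.11.15.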

Additional observations from a re-analysis of the deposited data

How the results depend on the processing

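The counts of members called moved mainly with the scaling. With library size only, 26 members were called higher and 11 lower, 7 were higher by the 2-fold thresholds, the members' median log₂FC was 0.34, and 11 genes of the related lists were lower. With upper-quartile scaling the median was -0.065. Without a filter beyond 1 count, 7 members were higher past 2-fold and the median was 0.013, because more low genes were tested. The number higher past 2-fold was 2 with the unequal-variance test and 2 with a CPM of at least 1 in 3 libraries. Leaving out the members with support in 1 group only or with reads that may be shared gave 1 higher past 2-fold and a median of -0.26. Leaving out each library in turn gave a median from -0.20 to -0.15, 13 to 17 members higher and 21 to 22 lower, and the call held in every such fit for 42 of the 48 members, the exceptions being ACSS1, GAPDH, HK2, HK3, PDHA1 and PFKL. The share of counts on the members was 1.87% in control and 2.06% with ATRA without the 100 most abundant other genes. The direction turned with library size only for 11 members, GAPDH (0.34), HK1 (0.40), PFKP (0.093), PFKM (0.33), ALDOC (0.42), ADPGK (0.14), AKR1A1 (0.20), DLAT (0.01), DLD (0.02), MINPP1 (0.41) and PDHA1 (0.23), and the calls on ACSS1, GALM, LDHB, PGK1 and PGM2 were lost. ALDOC also turned with upper-quartile scaling (0.025) and when control replicate 3 or ATRA replicate 2 was left out (-0.23 to 0.33 over all such fits), and ENO2 when control replicate 1 or ATRA replicate 1 was left out (-0.01 to 0.045). Neither gene was called in the fit over all libraries. The cause of these differences was not tested beyond what the settings themselves change.

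With the replicate number as a block, 14 members were higher and 23 lower, 4 and 7 past 2-fold, with a median of -0.14. The deviations of same-numbered libraries had correlations of 0.0892, 0.0299 and -0.0764, and those of differently numbered libraries ranged from -0.135 to 0.1. With 3 libraries per group, these values cannot tell whether the numbers mark the same animals, so the fit without a block was kept as the main one. Depth limits the 11 untested members and the members below 1 CPM.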
